A study of Homo sapiens with 8 samples.

Results

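Entinostat-treated BRCA1+ cells were compared with untreated BRCA1-null cells, a pairing in which both the line and the drug differ and which asks which differences between the lines remain, shrink or grow once the restored line has received the drug. UWB1.289 is an ovarian cancer cell line with an inactivating BRCA1 mutation, here called BRCA1-null, and BRCA1+ is its derivative transduced with wild-type BRCA1. Cells received 0.5 uM entinostat or the vehicle DMSO for 24 h, and poly(A) RNA was sequenced in 2 libraries for each of the 4 combinations of line and treatment. The comparison covered every named gene that passed a filter on low counts, 17714 of 25369 genes. The BRCA1+ cells are a single transduced derivative, so an effect of BRCA1 cannot be told apart from other differences between these 2 lines. Nothing in the labels says that the 2 libraries of a group came from separate cultures, and the p-values then measure only the spread between these libraries, which may be technical.

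Entinostat inhibits class I histone deacetylases, enzymes that remove acetyl groups from histone tails within repressor complexes such as NuRD, CoREST, SIN3 and NCoR/SMRT. Inhibition of these enzymes raises acetylation, commonly induces silent or weakly expressed genes and commonly slows the cell cycle through the CDK inhibitor p21. BRCA1 acts in homologous recombination and in checkpoint signalling, and it also takes part in transcriptional regulation. Loss of BRCA1 in cancer cells is known to go along with inflammatory and interferon-related gene expression.

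For each gene the difference between the 2 groups was split into a line part, the mean of BRCA1+ cells minus the mean of BRCA1-null cells over both treatments, and a drug part, the mean of entinostat minus the mean of control over both lines. On the log2 scale the difference between treated BRCA1+ and untreated BRCA1-null cells is the sum of these 2 parts. A line difference was termed widened when both parts were called with the same sign and left when the line part alone was called. Where the 2 parts were called with opposite signs, it was termed closed when the 2 groups no longer differed by the test and the 95% interval of their difference lay within 0.58 on the log2 scale, which is 1.5-fold. It was termed overshot when the groups differed in the direction of the drug, and otherwise narrowed. A difference was termed opened when the line part was not called but the drug part and the difference between the groups were, with the same sign. Left therefore means that the drug part did not pass the test, not that it was shown to be 0. The drug part averages both lines, so a class does not by itself show a drug change in BRCA1+ cells.

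One promoter is shown for a prominent gene of each class, so that the stretch of DNA upstream of the differing transcripts can be inspected. NOTCH3 represents the widened genes, COL16A1 the closed, CORO1A the overshot, CDKN1A the opened and COL6A2 those left. Each stretch runs from 250 bases before to 50 bases after the start of the gene in RefSeq on GRCh38.p14, and capitals mark the GC box, GGGCGG or CCGCCC on the strand shown, to which SP1-family factors are known to bind.
NOTCH3, chr19:15200946-15201245, minus strand: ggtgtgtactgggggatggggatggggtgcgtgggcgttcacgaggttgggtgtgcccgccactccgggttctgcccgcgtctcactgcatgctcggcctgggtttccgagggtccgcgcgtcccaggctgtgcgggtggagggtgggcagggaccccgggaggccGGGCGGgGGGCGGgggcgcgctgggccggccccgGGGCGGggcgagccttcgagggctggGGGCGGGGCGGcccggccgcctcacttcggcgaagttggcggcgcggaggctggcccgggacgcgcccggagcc
COL16A1, chr1:31703968-31704267, minus strand: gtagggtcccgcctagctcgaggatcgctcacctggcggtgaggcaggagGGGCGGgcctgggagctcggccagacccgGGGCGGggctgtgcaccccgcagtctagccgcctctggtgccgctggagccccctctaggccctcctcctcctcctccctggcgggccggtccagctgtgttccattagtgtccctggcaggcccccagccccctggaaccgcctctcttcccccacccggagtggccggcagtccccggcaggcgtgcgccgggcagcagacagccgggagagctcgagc
CORO1A, chr16:30183352-30183651, plus strand: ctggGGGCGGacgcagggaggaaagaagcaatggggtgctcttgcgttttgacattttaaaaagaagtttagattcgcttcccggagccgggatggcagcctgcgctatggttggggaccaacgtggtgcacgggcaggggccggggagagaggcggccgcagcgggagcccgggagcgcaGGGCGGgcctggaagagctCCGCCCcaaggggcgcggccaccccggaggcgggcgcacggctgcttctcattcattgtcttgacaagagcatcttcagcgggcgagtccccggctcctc
CDKN1A, chr6:36678464-36678763, plus strand: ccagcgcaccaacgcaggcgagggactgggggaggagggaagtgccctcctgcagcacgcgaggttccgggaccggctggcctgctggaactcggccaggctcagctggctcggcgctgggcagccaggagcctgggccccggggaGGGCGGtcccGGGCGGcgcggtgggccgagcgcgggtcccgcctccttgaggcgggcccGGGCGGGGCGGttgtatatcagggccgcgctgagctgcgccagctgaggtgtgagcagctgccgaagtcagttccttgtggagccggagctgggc
COL6A2, chr21:46097862-46098161, plus strand: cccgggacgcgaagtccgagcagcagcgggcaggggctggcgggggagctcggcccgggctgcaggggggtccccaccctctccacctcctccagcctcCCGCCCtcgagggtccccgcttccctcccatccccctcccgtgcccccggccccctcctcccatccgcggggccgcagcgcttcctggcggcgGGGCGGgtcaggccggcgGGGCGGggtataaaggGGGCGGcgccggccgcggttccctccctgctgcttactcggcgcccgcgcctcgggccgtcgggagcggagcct
Overlapping matches included, the NOTCH3 stretch held 5 GC boxes, the CDKN1A and COL6A2 stretches 4 each, the CORO1A stretch 3 and the COL16A1 stretch 2. Of 35116 RefSeq promoter stretches of the same 300 bases, 45.0% held at least 1. The matches are a description of letters and do not show binding.

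Total counts were 31900158 and 46855096 in the treated BRCA1+ libraries and 44268510 and 53549893 in the untreated BRCA1-null libraries, and the other 4 libraries lay between 40896050 and 46970431. A floor of 3 counts corresponded to 0.0552 to 0.0946 CPM, counts per 1e6 reads of the effective library, and covers counting error only. Libraries of different groups lay farther apart than replicates. The root mean square difference in log2 CPM over the tested genes was 0.905 to 0.955 between the 2 groups compared, 0.863 to 0.907 between the untreated lines and 0.381 to 0.408 between replicates. All 11 markers of the line's Mullerian and epithelial identity were present, with a summed level of 13700 to 17800 CPM. The sum includes the keratins KRT8 and KRT18, with 1920242 and 1601740 counts over the 8 libraries. It therefore does not by itself give the level of Mullerian markers such as PAX8. The fibroblast markers DCN, LUM and COL3A1 and the lymphocyte markers CD3D and MS4A1 had 0 counts in every library. The other 7 of 9 immune markers were detected, and the summed level of the list was 23.1 and 25.3 CPM in treated BRCA1+ cells, 27.1 and 29.7 CPM in untreated BRCA1-null cells, 16.7 and 17.9 CPM in untreated BRCA1+ cells and 30.9 and 39.3 CPM in treated BRCA1-null cells; their part in the differences of immune genes was not tested.

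Treated BRCA1+ and untreated BRCA1-null cells differed widely, and to a similar extent in both directions. By edgeR's quasi-likelihood test, 8481 genes (47.9% of those tested) had an adjusted p-value under 0.05, of which 4321 (24.4%) were higher and 4160 (23.5%) were lower in treated BRCA1+ cells. The line part was called for 9545 genes (53.9%) and the drug part for 4622 (26.1%), with 2698 genes raised and 1924 lowered by entinostat. The line part was thus the broader of the 2, while the drug part was strongly one-sided among large changes: of 683 genes with a called drug part of at least 1 on the log2 scale, 95.8% were raised.

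The reverse pairing, untreated BRCA1+ against treated BRCA1-null cells, shares no library with this comparison and holds the same line difference with the drug on the other side. It called 8080 genes (45.6%). Of these, 4331 (53.6%, or 51.1% of the calls of the first pairing) were called in the same direction in both pairings and 789 (9.76%, or 9.30%) in opposite directions. The balance of large differences depended on which line had received the drug. Among called genes that differed by at least 1 on the log2 scale, 51.6% of 2487 were higher in BRCA1+ cells when BRCA1+ cells were treated, whereas 22.1% of 2451 were higher in BRCA1+ cells when BRCA1-null cells were treated. At a threshold of 2 the shares were 54.2% of 829 and 17.4% of 1046 genes.

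Most line differences were left by the drug. Of the 9545 genes with a called line part, 6622 (69.4%; 37.4% of all tested genes) were left, 1502 (15.7%; 8.48% of tested genes) were widened and 1421 had the 2 parts in opposite directions. The last group comprised 648 closed genes (3.66% of tested genes), 90 overshot genes (0.508%), 422 that were narrowed but still differed and 261 for which the interval decided neither way. A further 1145 genes (6.46% of tested genes) were opened. The widened genes were more often raised and higher in BRCA1+ cells (897) than lowered and lower in BRCA1+ cells (605). Among the overshot genes 73 were raised and 17 lowered by entinostat, and among the closed genes 308 were raised and 340 lowered.

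Closed genes had small line parts, which are means over both treatments and not differences between the untreated lines. The median absolute line part was 0.30 among closed genes, 0.51 among those left, 0.45 among widened, 0.35 among overshot and 0.88 among those narrowed but still different, and the median absolute drug part was 0.28 among closed and 0.88 among overshot genes. These medians describe the classes, whose limits rest on the same values. Counts of opposed parts were sensitive to single libraries: without treated BRCA1+ replicate 1 there were 841 genes with opposed parts, 415 of them closed and 40 overshot, and without treated BRCA1+ replicate 2 there were 816, 377 and 37. Without untreated BRCA1+ replicate 2 there were 932 genes with opposed parts, and without untreated BRCA1-null replicate 1 or 2 there were 40 or 49 overshot genes. Without treated BRCA1+ replicate 2 the widened genes numbered 960, the opened 741 and the genes with a called drug part 3058. With the replicate number added to the fit as a block, the differences of 6 genes described below as closed (TLE2, INHBB, IFNAR2, RRM2, GINS4 and H1F0) passed the test.

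**Figure D1:**
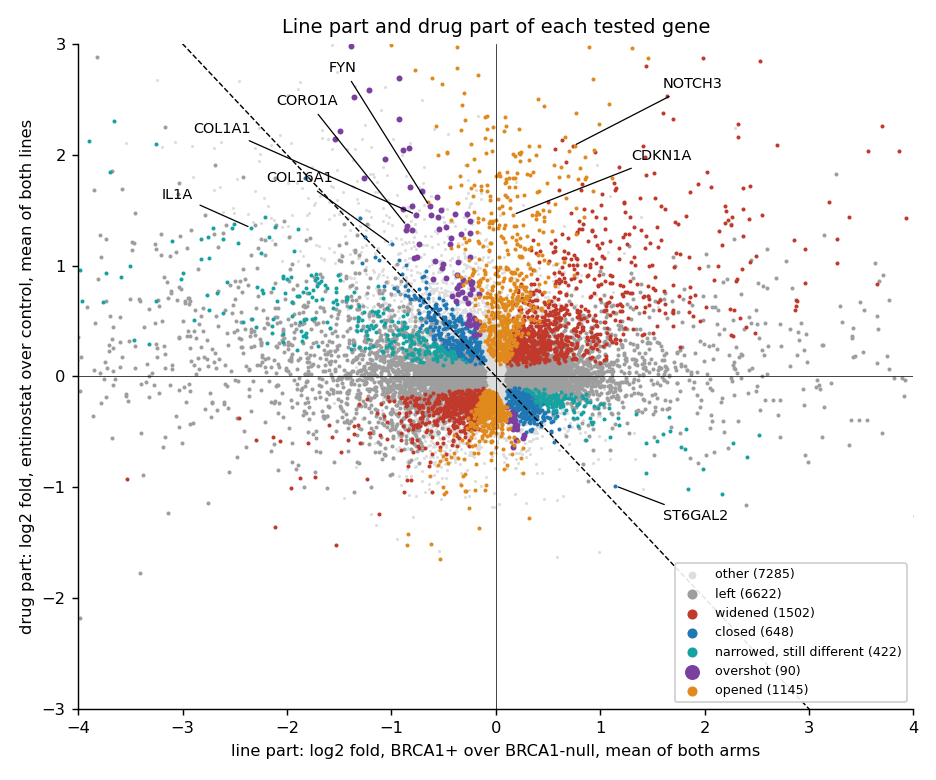
Line part (x axis) and drug part (y axis) of each tested gene, both as log2 fold changes, coloured by class with the number of genes in parentheses. The dashed line marks a difference of 0 between treated BRCA1+ and untreated BRCA1-null cells; closed genes lie along it, and most of the large drug parts lie above the horizontal axis. 197 genes lie outside the plotted range.

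Among differences that were left, BRCA1 itself served as a check of the labels. BRCA1 had 134 and 118 CPM in treated BRCA1+ cells, 21.0 and 22.4 CPM in untreated BRCA1-null cells, 98.9 and 92.4 CPM in untreated BRCA1+ cells and 17.6 and 19.1 CPM in treated BRCA1-null cells. All 4 BRCA1+ libraries lay above all 4 BRCA1-null libraries, and the 2 groups compared differed by 2.53 ± 0.08 (log2 fold change ± SE here and throughout, n = 2 and 2; edgeR adjusted p = 2.60e-07). BRCA1 was left because its drug part over both lines was not called (0.08 ± 0.06, edgeR adjusted p = 0.409). Its drug change in BRCA1+ cells alone was called (0.39 ± 0.08, edgeR adjusted p = 0.0124). In BRCA1-null cells it was -0.24 ± 0.09 (edgeR adjusted p = 0.131), and the untreated lines differed by 2.14. Counts do not separate the mutated from the transduced transcript.

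Among genes whose mean log2 CPM reached 3 and whose libraries did not overlap between the groups, the lowest differences were those of 2 chains of type VI collagen. COL6A2, which encodes one chain of that beaded-filament collagen, had 0.757 and 0.496 CPM in treated BRCA1+ cells and 143 and 145 CPM in untreated BRCA1-null cells, with 0.725 and 0.697 CPM in untreated BRCA1+ and 156 and 146 CPM in treated BRCA1-null cells. COL6A1, its neighbour on chromosome 21, had 0.662 and 0.625 against 179 and 148 CPM. Neither treatment brought a BRCA1+ library near a BRCA1-null library for these 2 genes, and the differences were -7.90 ± 0.22 and -7.99 ± 0.32. EHF, an epithelial ETS-family transcription factor, had 3.15 and 1.92 against 71.6 and 51.5 CPM (-4.65 ± 0.33).

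The highest differences under the same limits were those of a receptor, a binding protein and 2 transporters. NPR3, the natriuretic peptide clearance receptor, had 128 and 221 CPM in treated BRCA1+ cells against 2.70 and 3.00 CPM in untreated BRCA1-null cells (5.94 ± 0.42). ABCA4, a lipid-flipping ABC transporter known from photoreceptors, had 231 and 234 against 7.03 and 5.87 CPM (5.18 ± 0.18). IGFBP5, an insulin-like growth factor binding protein, had 303 and 380 against 6.53 and 5.63 CPM (5.82 ± 0.17), and its drug part of -0.40 ± 0.13 was called (adjusted p = 0.0429), so it was narrowed but remained far apart. SLC7A8, a neutral amino acid transporter, was widened, with 47.7 and 43.8 against 2.62 and 2.06 CPM and a drug part of 1.02 ± 0.14. Its drug change was 0.42 ± 0.14 in BRCA1+ cells, which was not called (edgeR adjusted p = 0.0741). In BRCA1-null cells it was 1.63 ± 0.25 (adjusted p = 0.00511). The untreated lines differed by 3.88 and the groups compared by 4.30.

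The closed genes with the largest drug parts included a collagen, a zinc-finger factor and a corepressor. COL16A1, a fibril-associated collagen, had 13.5 and 10.9 CPM in untreated BRCA1+ cells, 31.7 and 33.2 CPM in treated BRCA1+ cells and 28.1 and 28.8 CPM in untreated BRCA1-null cells. The treated BRCA1+ libraries thus came up to the level of untreated BRCA1-null cells, with a difference of 0.19 ± 0.15 (95% interval -0.14 to 0.53), while treated BRCA1-null cells stood higher at 64.3 and 46.6 CPM. ZNF467 went from 4.55 and 2.35 to 11.4 and 8.13 CPM in BRCA1+ cells, against 10.4 and 9.71 CPM in untreated BRCA1-null cells. TLE2, a Groucho-family corepressor, went from 7.80 and 8.06 to 15.6 and 20.5 CPM, against 14.3 and 15.8 CPM, and without treated BRCA1+ replicate 1 its difference of 0.45 was called (adjusted p = 0.0148).

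In the other direction, genes that were high in untreated BRCA1+ cells stood near the untreated BRCA1-null level after the drug. ST6GAL2, a sialyltransferase, had 43.3 and 59.8 CPM in untreated BRCA1+ cells, 25.4 and 27.6 CPM in treated BRCA1+ cells and 26.0 and 21.8 CPM in untreated BRCA1-null cells. The difference after treatment was 0.15 ± 0.16 (95% interval -0.21 to 0.52). SIM2, a bHLH-PAS transcription factor, went from 31.9 and 26.3 to 21.6 and 18.7 CPM, against 17.5 and 19.0 CPM. INHBB, the beta-B subunit of inhibins and activins, went from 254 and 182 to 192 and 151 CPM, against 154 and 138 CPM, and its untreated BRCA1+ libraries spread more widely than the shift. Its drug change in BRCA1+ cells alone was not called (-0.35 ± 0.15, edgeR adjusted p = 0.174).

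Among narrowed differences, IL1A, an inflammatory cytokine of the interleukin-1 family, rose from 3.10 and 3.31 to 11.1 and 9.66 CPM in BRCA1+ cells but stayed below the 23.4 and 18.1 CPM of untreated BRCA1-null cells. Its line part was -2.34 ± 0.12 and its drug part 1.34 ± 0.12, which left a difference of -1.0 ± 0.14 (adjusted p = 0.000398). LCK, a SRC-family tyrosine kinase, kept a difference of -0.78 ± 0.11 and KCNN4, a calcium-activated potassium channel, one of -1.27 ± 0.09. In the reverse sense, LRRN1, a leucine-rich repeat membrane protein, was lowered from 121 and 130 to 71.0 and 74.0 CPM and remained above the 23.4 and 21.8 CPM of untreated BRCA1-null cells.

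The overshot genes named here had lower levels in untreated BRCA1+ than in untreated BRCA1-null cells, and higher ones after the drug. FYN, another SRC-family kinase, had 3.45 and 3.96 CPM in untreated BRCA1+ cells, 13.1 and 11.6 CPM in treated BRCA1+ cells and 6.15 and 6.92 CPM in untreated BRCA1-null cells (0.90 ± 0.12, adjusted p = 0.0003). COL1A1, the alpha-1 chain of type I collagen, had 4.45 and 4.07, then 15.4 and 14.0, against 9.03 and 9.07 CPM (0.69 ± 0.14). CORO1A, an actin-binding coronin, had 10.9 and 8.52, then 32.9 and 25.3, against 19.0 and 21.6 CPM (0.51 ± 0.14). The call for CORO1A was lost without treated BRCA1+ replicate 1 (0.32, adjusted p = 0.110) or without untreated BRCA1-null replicate 1 (0.41, adjusted p = 0.0863), and its position overlaps BOLA2 and BOLA2B in the deposited annotation.

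The widened genes named here moved further from the untreated BRCA1-null level. For others, among them SLC7A8, SOCS2, BST2, POLA2, NBN and CHEK2, the drug change in BRCA1+ cells alone was not called. NOTCH3, a receptor of the Notch pathway, had 24.7 and 24.2 CPM in untreated BRCA1+ cells and 114 and 123 CPM after the drug, against 16.9 and 16.8 CPM in untreated BRCA1-null cells. This amounted to a 7.05-fold difference (2.82 ± 0.08 on the log2 scale, adjusted p = 9.05e-08), and treated BRCA1-null cells reached 65.0 and 58.6 CPM. AIM1L, a crystallin-fold protein, had 28.9 and 33.1 against 2.40 and 1.99 CPM (3.84 ± 0.18), and OLFML2A, an olfactomedin-domain extracellular protein, had 23 and 22.8 against 3.23 and 3.37 CPM (2.79 ± 0.15). Downwards, NOG, which encodes the BMP antagonist noggin, had 25.8 and 19.9 against 71.3 and 71.2 CPM (-1.65 ± 0.18). ATF5, a stress-responsive bZIP factor, had 20.6 and 22.4 against 69.4 and 65.9 CPM (-1.65 ± 0.07), and its position overlaps NUP62.

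Opened differences were not called between the lines as such and came with the drug. CDKN1A, which encodes the CDK inhibitor p21, had 4.20 and 3.83 CPM in untreated BRCA1+ cells and 4.86 and 3.66 CPM in untreated BRCA1-null cells, so the untreated lines overlapped. Treated BRCA1+ cells had 13.7 and 12.4 CPM and treated BRCA1-null cells 11.6 and 7.95 CPM, and the difference between the 2 groups compared was 1.62 ± 0.20, or 3.07-fold (adjusted p = 0.000182). RTN2, a reticulon of the endoplasmic reticulum, had 15.6 and 19.3 against 6.15 and 5.48 CPM, and GABRB2, a GABA-A receptor subunit, had 17.7 and 15.3 against 5.60 and 5.63 CPM. ADI1, an enzyme of the methionine salvage pathway, was lower, with 65.4 and 62.0 against 115 and 106 CPM.

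**Figure D2:**
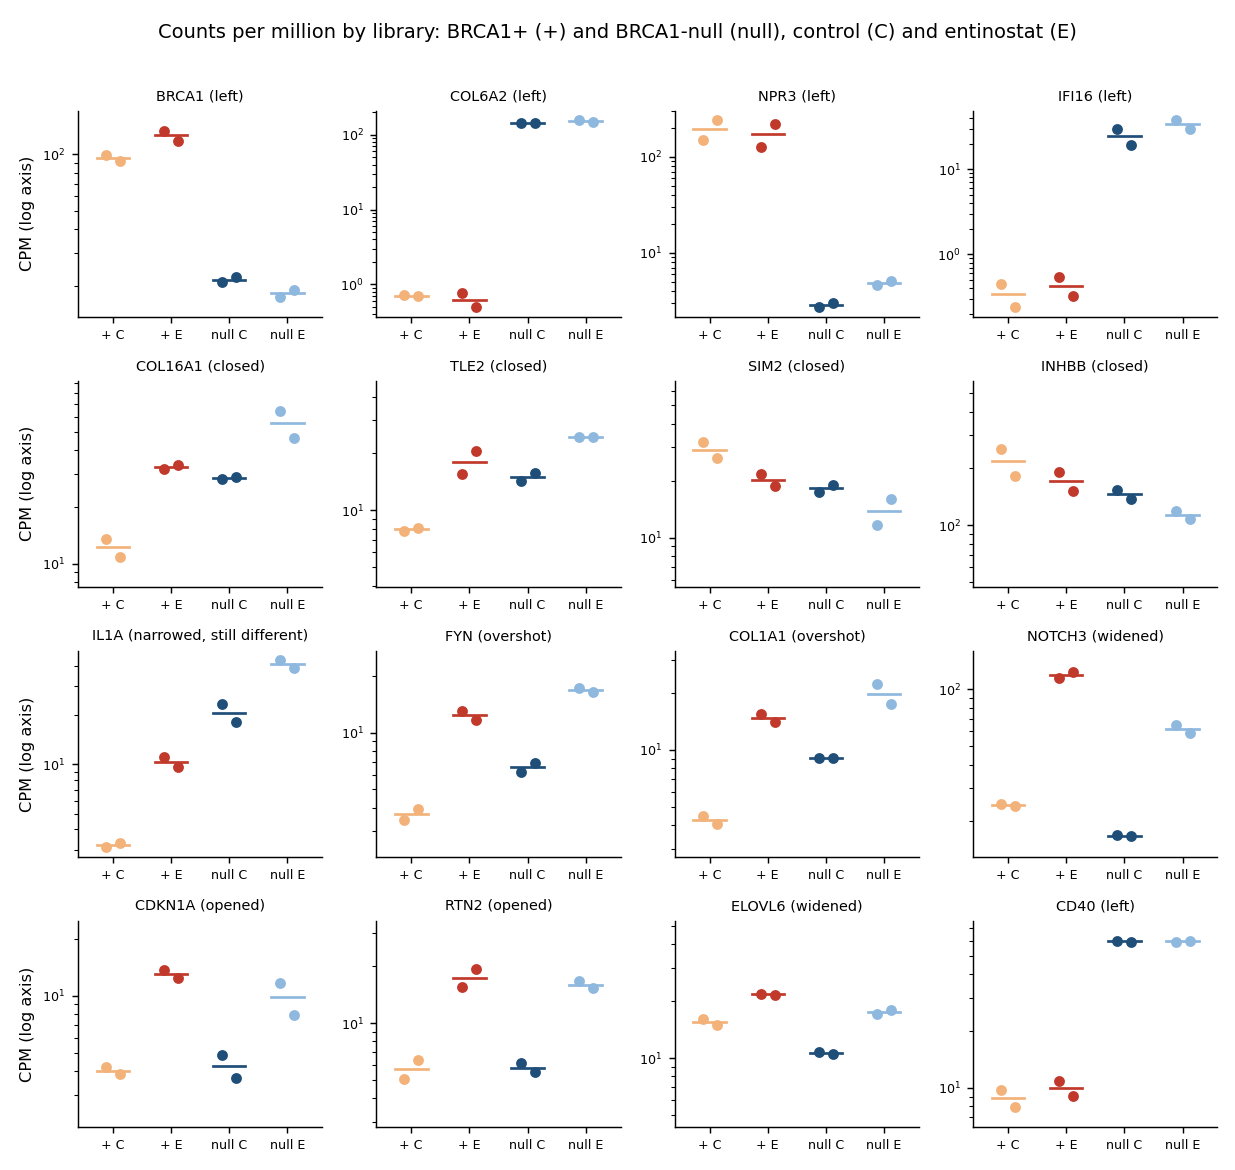
CPM (log axis) of 16 genes in each library, with the 2 libraries of a group as points and their mean as a bar; + and null denote BRCA1+ and BRCA1-null, C control and E entinostat, and the class stands in each title. COL16A1 shows treated BRCA1+ libraries at 31.7 and 33.2 CPM beside 28.1 and 28.8 CPM in untreated BRCA1-null cells, whereas CD40 and COL6A2 stay apart under both treatments.

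Interferon-stimulated genes, antiviral effectors induced by interferon receptors, were mostly lower in BRCA1+ cells, and few of their drug parts passed the test. Of 37 tested members, 17 were lower and 4 higher in treated BRCA1+ cells (56.8% called, against 47.9% of all genes), with a median difference of -0.55, beside -0.02 over all genes. The line part was called lower for 23 members and higher for 3 (median -0.91, 70.3% called against 53.9% of all genes). The drug part was called for 5 members (13.5%, against 26.1% of all genes), all raised, and 22 line differences were left. IFI16, a DNA sensor, had 0.536 and 0.323 CPM in treated BRCA1+ cells against 29.4 and 19.4 CPM in untreated BRCA1-null cells (-5.88 ± 0.67, adjusted p = 5.58e-06), and untreated BRCA1+ cells had 0.450 and 0.240 CPM. Its deposited position overlaps SRGAP2D, which spans a long interval there.

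SAMD9, an antiviral effector, was the 1 member closed, with 9.11 and 9.40 against 10.9 and 7.45 CPM (0.03 ± 0.18). Its difference between the untreated lines was not called (-0.39, edgeR adjusted p = 0.117). Nor was its drug change in BRCA1+ cells alone (0.42, adjusted p = 0.184). The members narrowed but still different were ISG20, an exonuclease (-1.88), and IFITM2, a membrane protein that blocks viral entry (-1.93), both singled out after their values were seen. GBP1, a guanylate-binding protein, and BST2, a tetherin, ran against the list and were higher in treated BRCA1+ cells by 1.87 ± 0.23 and 0.46 ± 0.08. OASL, GBP2 and SAMD9L had line parts of -1.80, -1.42 and -1.43 and uncalled differences of -0.79, -0.92 and -0.55. Their drug parts of 1.01, 0.50 and 0.89 did not pass the test, so they were counted as left although neither an equal level nor a difference was shown.

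Among the 19 receptors and signal transducers of the interferon pathway, 7 were higher and 6 lower in treated BRCA1+ cells (68.4% called, against 47.9% of all genes), with a median of 0.09. IRF7, a transcription factor that drives type I interferon, was lower by the test, with 5.17 and 4.01 against 22.0 and 11.6 CPM (-1.88 ± 0.35). SOCS2, a suppressor of cytokine signalling, was widened and higher (1.42 ± 0.18). IFNAR2, a subunit of the type I interferon receptor, had a drug change in BRCA1+ cells alone that was not called (0.39 ± 0.13, edgeR adjusted p = 0.0762). It was closed at 12 and 11.6 against 13.3 and 15.4 CPM (-0.29 ± 0.12). Without untreated BRCA1-null replicate 1 that difference was -0.40 and called (adjusted p = 0.0380).

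Chemokines and cytokines gave the lowest median of the 23 lists. Of 21 tested members, 9 were lower and 4 higher in treated BRCA1+ cells (61.9% called, against 47.9% of all genes), with a median of -0.87, while the line part was lower for 15 and higher for 3 (85.7%, against 53.9%; median -1.23). The drug part was called for 6 members, all raised (28.6%, near the 26.1% of all genes; median 0.41). CXCL10, a chemoattractant for T cells, had 0 and 1 counts in treated BRCA1+ cells and 28 and 12 counts in untreated BRCA1-null cells, at least 5.25-fold lower against the floor of 3 counts per library. Its call was lost without any 1 of treated BRCA1+ replicate 1 (adjusted p = 0.0868), treated BRCA1+ replicate 2 (0.101) or untreated BRCA1-null replicate 1 (0.0718). CXCL11, of the same family, did not pass the filter, with 1 and 0 against 9 and 4 counts. CXCL8, the neutrophil chemoattractant interleukin-8, was the member opened, at 0.94 higher in treated BRCA1+ cells, and was singled out after its value was seen. CCL2, a monocyte chemoattractant, and IL18, an interleukin-1 family cytokine, were higher in both BRCA1+ groups than in the BRCA1-null groups, with differences of 1.86 ± 0.23 and 1.01 ± 0.08.

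Called regulators of NF-kB and receptors of the TNF family were lower in treated BRCA1+ cells with 1 exception. Of 22 tested members, 16 were lower and 1, TNFAIP2, was higher (77.3% called, against 47.9% of all genes; median -0.48). All 18 called line parts were lower in BRCA1+ cells (81.8% called, against 53.9% of all genes). All 7 called drug parts were raised by entinostat (31.8% called, near the 26.1% of all genes). Over all genes 58.4% of called drug parts were raised. CD40, a TNF receptor of antigen-presenting and epithelial cells, had 10.8 and 9.03 against 60.1 and 59.3 CPM and a drug part of 0.08 ± 0.08. TNFAIP3, TRAF1, ICAM1, NFKBIA and TNFRSF10B, which act as feedback inhibitors, an adaptor, an adhesion receptor and a death receptor, were narrowed but still different; these 5 were named after their values were seen. TNFSF10, the death ligand TRAIL, was closed at 3.34 and 3.30 against 3.43 and 2.70 CPM. TNFAIP2 was the member that overshot, at 132 and 117 against 105 and 99.0 CPM, a call lost without treated BRCA1+ replicate 1 (0.20, adjusted p = 0.120) or untreated BRCA1-null replicate 2 (0.24, adjusted p = 0.103).

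**Figure D3:**
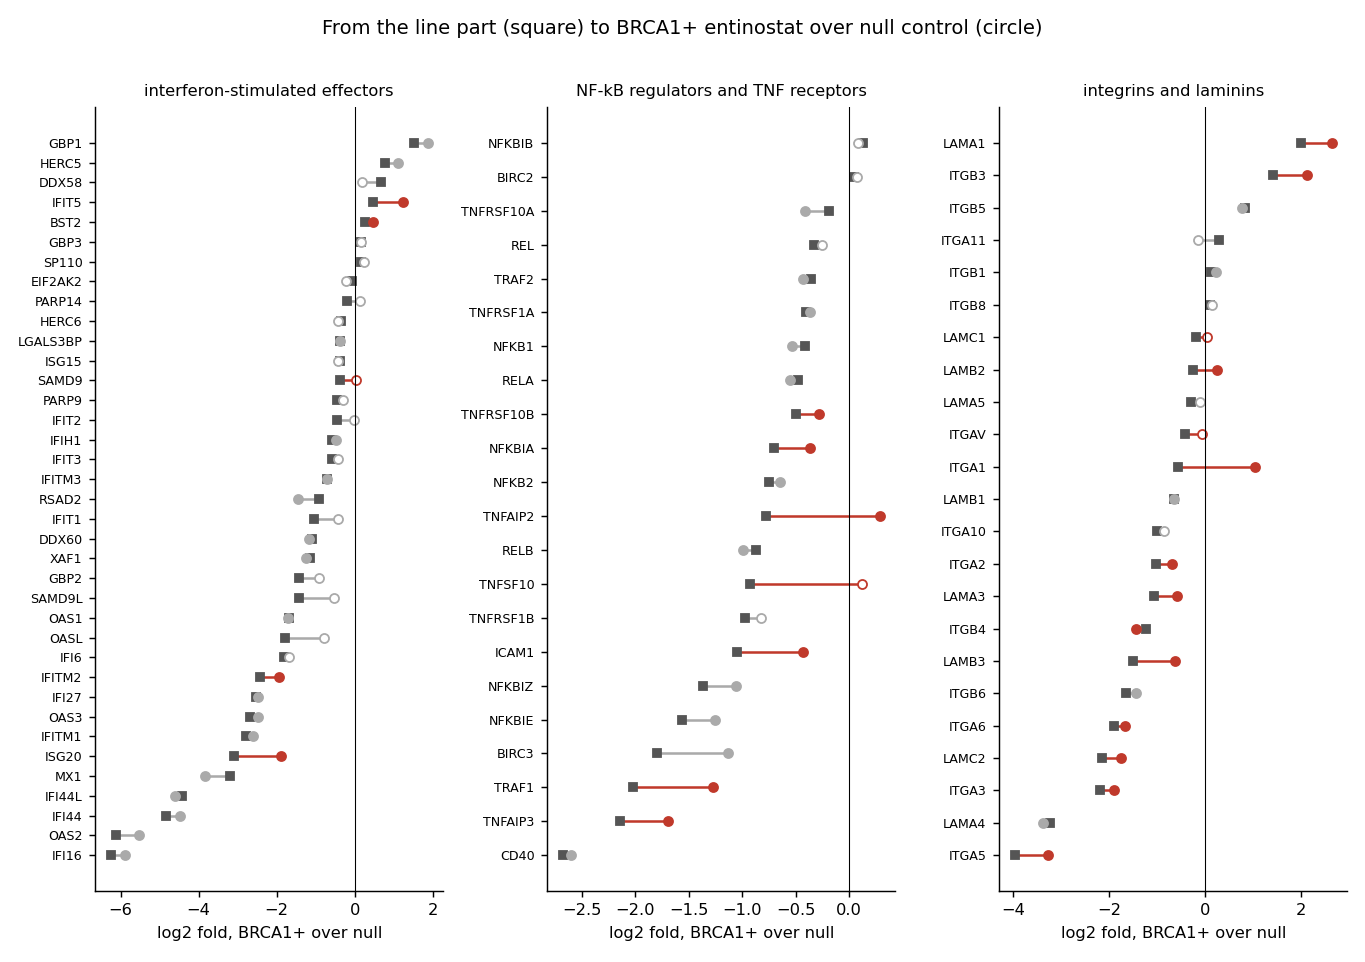
For each tested member of 3 lists, the square marks the line part and the circle the log2 fold difference of treated BRCA1+ over untreated BRCA1-null cells, and the bar between them is the drug part, red where it was called and grey where it was not. Filled circles differ by the test and open circles do not. Among the 37 interferon-stimulated members 32 bars are grey, 26 of them wholly left of 0 with IFI16 at -5.88, whereas 14 of the 23 bars of the integrins and laminins are red, 11 of these with a drug part opposed to the line part.

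Integrins and laminins, the matrix receptors and basement membrane ligands of epithelial cells, were among the 23 lists the one with the largest share of called drug parts. The drug part passed the test for 14 of 23 members (60.9%, against 26.1% of all genes), 13 raised and 1 lowered. The line part passed for 20 (87.0%, against 53.9% of all genes), of which 17 were lower in BRCA1+ cells. In treated BRCA1+ cells 11 members were lower and 6 higher than in untreated BRCA1-null cells (73.9% called, against 47.9% of all genes), with a median of -0.58. In all, 7 were narrowed but still different, among them ITGA5, a fibronectin receptor subunit (-3.28), and LAMB3, a laminin-332 chain (-0.62), both named after their values were seen. ITGA1, a collagen receptor subunit, overshot, with 2.13 and 2.59 CPM in untreated and 7.51 and 6.25 CPM in treated BRCA1+ cells against 3.23 and 3.33 CPM (1.05 ± 0.15). Its position encloses PELO. ITGB3, a vitronectin receptor subunit, and LAMA1, a laminin chain, were widened, with differences of 2.13 ± 0.06 and 2.64 ± 0.14, and LAMA4 was left at -3.38 ± 0.11.

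Collagens and matrix proteins showed a wide spread. The line part was lower for 12 and higher for 5 of 23 tested members (median -0.73, 73.9% called against 53.9% of all genes). All 8 called drug parts were raised (34.8% called, against 26.1% of all genes). In treated BRCA1+ cells 9 members were lower and 6 higher (65.2% called, against 47.9% of all genes) with a median of -0.02. Besides COL16A1 and COL1A1, described above, FBN2, a microfibril protein, was left and higher at 54.9 and 54.6 against 8.35 and 7.60 CPM (2.78 ± 0.11). Collagens are also fibroblast products. The fibroblast marker list itself holds COL1A1, COL1A2 and COL3A1, so its sum is not independent of the collagens. COL1A1 alone gave 13.99 and 15.45 CPM in treated BRCA1+ cells. The summed level of 10 fibroblast markers was 28.8 and 36.5 CPM in treated BRCA1+ cells, 40.5 and 57.4 CPM in untreated BRCA1-null cells, 14.7 and 20.1 CPM in untreated BRCA1+ cells and 59.5 and 85.4 CPM in treated BRCA1-null cells, with DCN, LUM and COL3A1 at 0 in each. The sum of 5 endothelial markers moved in the same order, from 9.58 and 16.3 through 27.4 and 38.4 and through 36.8 and 54.4 to 75.4 and 93.1 CPM, and the part of such cells in these results was not tested.

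Regulators of epithelial and mesenchymal state gave 9 higher and 5 lower members of 22 (63.6% called, against 47.9% of all genes; median 0.09). The mesenchymal transcription factor TWIST2 had 1 and 2 counts in treated BRCA1+ cells and 374 and 554 counts in untreated BRCA1-null cells, at least 115.6-fold lower. The epithelial cadherin CDH1 was widened, at 84.0 and 85.4 against 42.9 and 34.8 CPM (1.13 ± 0.12), as was the placental cadherin CDH3 (0.73 ± 0.07). ZEB1, a repressor of epithelial genes, and VIM, the mesenchymal intermediate filament vimentin, were narrowed but still lower in treated BRCA1+ cells, with differences of -1.15 and -0.86, and both were named after their values were seen.

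Keratins, the intermediate filaments of epithelia, held 9 opened members among 17 tested. In treated BRCA1+ cells 9 members were higher and 3 lower (70.6% called, against 47.9% of all genes, median 0.51). The line part was called for 5 (29.4%, against 53.9% of all genes). The opened class held 6.46% of all genes. Its 9 keratins include KRT4, KRT78 and KRT79, whose near-equal counts are given below and may not be separate results. The opened keratins that were raised included the basal keratin KRT5 (1.35) and the stratified-epithelium keratin KRT13 (1.97), named after their values were seen. KRT81, a hair keratin, was left and higher at 18.8 and 16.6 against 2.02 and 2.37 CPM (2.99 ± 0.16), and KRT8, a simple-epithelium keratin, was closed (0.06 ± 0.06).

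The 3 lowered keratins were KRT4, KRT78 and KRT79, which lie next to each other on chromosome 12. KRT78 had 0.221 and 2.5 CPM in treated BRCA1+ cells, 167 and 175 CPM in untreated BRCA1-null cells, 7.58 and 112 CPM in untreated BRCA1+ cells and 0.917 and 2.49 CPM in treated BRCA1-null cells. Its 2 untreated BRCA1+ libraries disagreed widely, and its difference was -6.78 ± 1.68 (adjusted p = 0.00153). Its line part of -0.80 ± 1.15 was not called. Counts of the 3 genes differed by at most 46 in any library, with counts of up to 9527, and whether they share reads was not tested.

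The Notch pathway list had 7 members higher and 2 lower of 21 in treated BRCA1+ cells (42.9% called, below the 47.9% of all genes; median 0.37), and 5 were widened, against 8.48% of all genes. Beside the receptor NOTCH3, the ligand DLL3 had 17.1 and 15.7 against 7.43 and 6.77 CPM (1.20 ± 0.12), and the target HEYL had 43 and 70 counts against 1 and 4 counts (4.78 ± 0.94). The target HEY1 was lower (-1.04 ± 0.22), a call lost without treated BRCA1+ replicate 2 (-0.83, adjusted p = 0.0594). Receptors and targets of the pathway therefore did not share 1 direction.

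Genes of DNA replication held more closed members than any other of the 23 lists. The line part was called for 69.4% of 36 members, against 53.9% of all genes. It was higher in BRCA1+ cells for 22 and lower for 3 (median 0.25). The drug part was called for 18 of the 36, against 26.1% of all genes. It was lowered for 16 and raised for 2 (median -0.13). In treated BRCA1+ cells 13 members were higher and 6 lower than in untreated BRCA1-null cells (52.8% called, near the 47.9% of all genes), and 7 of the 36 were closed, against 3.66% of all genes. RRM2, the ribonucleotide reductase subunit that supplies deoxynucleotides, had 235 and 237 CPM in untreated and 179 and 173 CPM in treated BRCA1+ cells against 165 and 154 CPM (0.15 ± 0.06). GINS4, a subunit of the replicative helicase complex, went from 70.0 and 70.2 to 63.5 and 60.5 CPM, against 51.4 and 57.5 CPM, and without untreated BRCA1-null replicate 2 its difference of 0.27 was called (adjusted p = 0.0292). The drug change of GINS4 in BRCA1+ cells alone was not called (-0.18 ± 0.07, edgeR adjusted p = 0.128). In BRCA1-null cells it was -0.45 ± 0.07 (edgeR adjusted p = 0.007). POLA2, a subunit of DNA polymerase alpha, was widened and lower (-0.52 ± 0.06).

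Mitotic genes gave 3 higher and 5 lower of 27 members, a share of 29.6% called that lay below the 47.9% of all genes. All 9 called drug parts were lowered (33.3% called, against 26.1% of all genes). PLK1, a mitotic kinase, and CCNA2, the S and G2 phase cyclin A2, were closed at -0.01 ± 0.07 and -0.05 ± 0.07, whereas the mitotic kinesin KIF23 was widened and lower (-0.70 ± 0.07). Among 19 CDK inhibitors and G1 regulators, 8 were higher and 3 lower (57.9% called, against 47.9% of all genes). CDKN2B, which encodes the CDK4/6 inhibitor p15, was widened at 30.6 and 31.9 against 14.3 and 12.3 CPM (1.24 ± 0.12), as was the G1 cyclin CCND3 (1.31 ± 0.10). Cyclin D1, encoded by CCND1, was lower (-0.40 ± 0.09), a call lost without treated BRCA1+ replicate 1 (-0.32, adjusted p = 0.0633) or untreated BRCA1-null replicate 2 (-0.32, adjusted p = 0.0501).

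Cholesterol and fatty acid synthesis was the 1 list of the 23 with no member lower. Of 24 members, 14 were higher in treated BRCA1+ cells (58.3% called, against 47.9% of all genes; median 0.41), 21 line parts were higher (87.5%, against 53.9% of all genes called in either direction), and 17 were left. ELOVL6, a fatty acid elongase, was widened, with 21.8 ± 0.17 CPM (SD, n = 2) in treated BRCA1+ cells, 15.6 ± 0.78 CPM in untreated BRCA1+ cells and 10.6 ± 0.18 CPM in untreated BRCA1-null cells (1.04 ± 0.09). FASN, the fatty acid synthase, was closed at 944 and 820 against 865 and 913 CPM, and the sterol reductase DHCR7 was closed at 288 and 248 against 210 and 242 CPM.

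The targets of the drug and their complexes were called about as often as other genes. Of 28 class I deacetylases and corepressor subunits, 10 were higher and 4 lower in treated BRCA1+ cells (14 of 28 called, near the 47.9% of all genes; median 0.13), and 6 were widened, against 8.48% of all genes. HDAC1 had 290 and 312 against 177 and 179 CPM (0.76 ± 0.06) and HDAC3 78.7 and 81.6 against 42.8 and 42.4 CPM (0.91 ± 0.06), both widened, while HDAC2 was left (0.33 ± 0.06). RCOR2, a CoREST scaffold, was narrowed but still lower (-1.05 ± 0.13), and MBD3, a NuRD subunit, was widened and lower (-0.82 ± 0.08). Of 18 tested histone genes and variants 2 were higher and 8 lower (55.6% called, against 47.9% of all genes; median -0.31). H1F0, the linker histone H1.0 that responds to deacetylase inhibitors, was closed, with 68.4 and 63.8 against 84.6 and 71.8 CPM (-0.24 ± 0.11), and so was H2AFX (0.04 ± 0.08).

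The list of BRCA1 partners and genes of homologous recombination held 44 members, BRCA1 itself included. Of these, 15 were higher, among them BRCA1, and 5 lower (45.5% called, near the 47.9% of all genes, median 0.04). TP53BP1, a regulator of end resection, and the checkpoint kinase CHEK2 were widened and higher by 0.60 ± 0.06 and 0.52 ± 0.09, and NBN, a subunit of the MRN complex, was widened and lower (-0.66 ± 0.07). Of 15 members of the BCL2 family 5 were higher and 3 lower (53.3% called, near the 47.9% of all genes; median 0.06). The effector BAK1 and the survival factor BCL2L1 were both widened and higher (0.70 ± 0.07 and 0.51 ± 0.06), while BIK, a BH3-only killer, was narrowed but still lower at 3.09 and 2.87 against 14.7 and 11.8 CPM.

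Growth factor lists held called members in both directions. In the IGF axis 6 of 12 tested members were higher and 4 lower (83.3% called, against 47.9% of all genes), and IGFBP3, a carrier of insulin-like growth factors, was widened and lower at 60.8 and 69.3 against 188 and 179 CPM, in contrast to IGFBP2 (1.04 ± 0.07) and IGFBP5. Of 12 tested receptors and ligands of the ERBB and MET families 4 were higher and 5 lower (9 of 12 called), and the ligand NRG1 was narrowed but still higher (0.65 ± 0.07). Of 13 tested Mullerian and ovarian carcinoma markers 5 were higher and 2 lower (53.8% called, nearer the share of all genes), and the oestrogen receptor gene ESR1 had 12 and 12 counts against 2 and 0 counts, at least 5.26-fold higher.

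Glycolysis and hypoxia genes were split evenly, with 8 of 25 members higher and 8 lower (64.0% called, against 47.9% of all genes). VEGFA, the vascular growth factor, was widened and lower at 40.6 and 40.4 against 84.6 and 87.1 CPM (-1.09 ± 0.08), EGLN3, an oxygen-sensing hydroxylase, was left and higher (1.58 ± 0.12), and ENO2, the neuronal enolase, overshot (0.56 ± 0.09). Of 19 targets of ATF4 and genes of amino acid supply 1 was higher and 5 lower (31.6% called, below that share), and 3 were closed, against 3.66% of all genes, including STC2, a secreted glycoprotein (-0.12 ± 0.09). Of 17 tested neuronal and secretory genes 5 were higher and 4 lower (52.9% called, near that share), all 6 called drug parts were raised (35.3% called, against 26.1% of all genes), and NEFM, a neurofilament subunit, was widened at 2.40 and 2.24 against 1.05 and 0.975 CPM (1.19 ± 0.24).

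**Figure D4:**
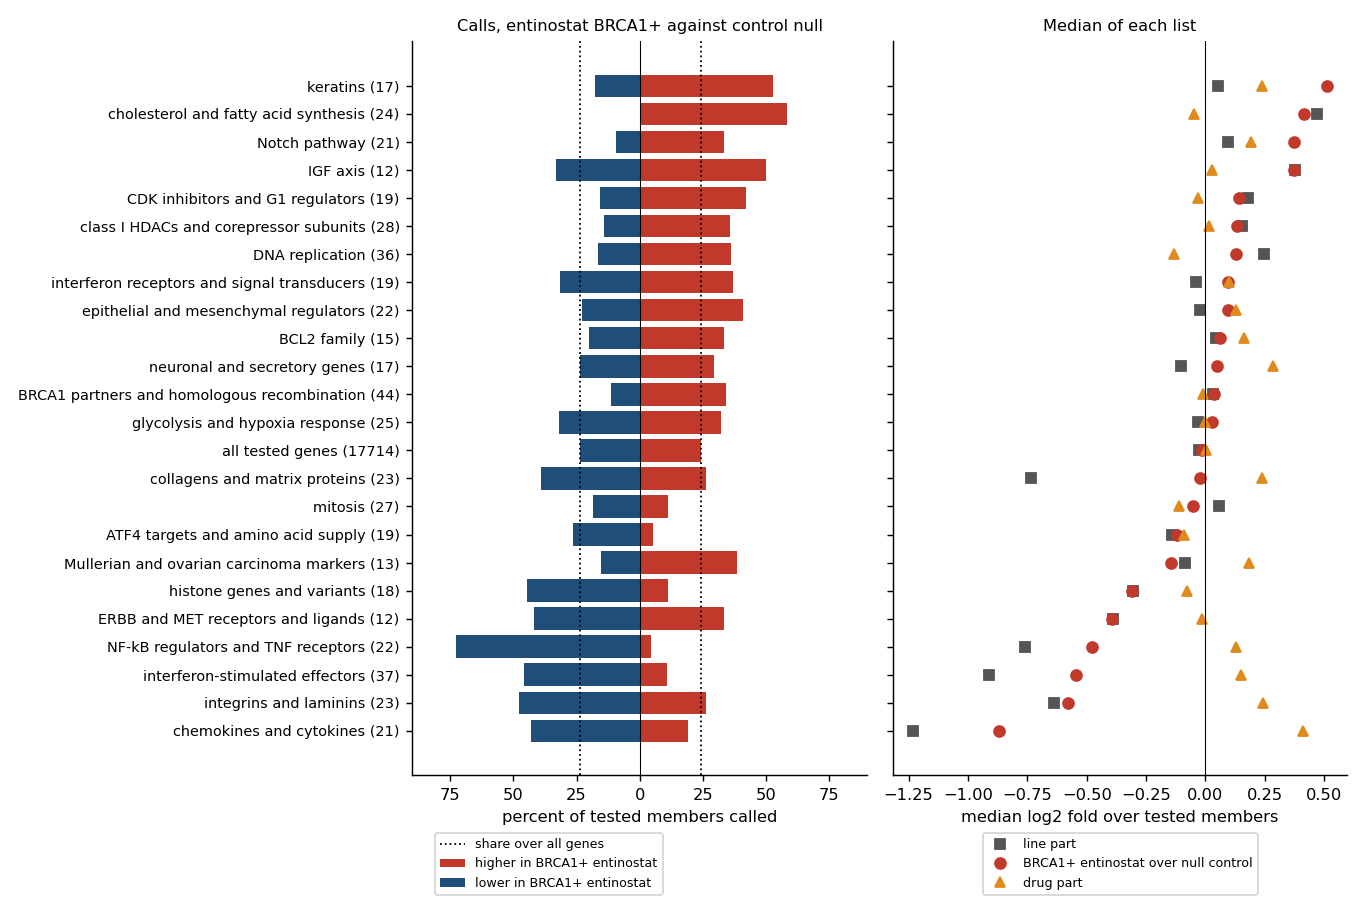
Left, the percent of tested members of each list (number in parentheses) that were higher or lower in treated BRCA1+ than in untreated BRCA1-null cells, with dotted lines at the 24.4% and 23.5% of all genes. Right, the median log2 fold of each list for the line part, the drug part and the difference between the 2 groups; chemokines and cytokines have the lowest median difference, -0.87, with medians of -1.23 for the line part and 0.41 for the drug part.

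The differences were not spread evenly over the genome. On chromosome 5, 468 of 822 tested genes were higher and 72 lower in treated BRCA1+ cells. That was 65.7% called, against 47.9% of all genes (24.4% higher and 23.5% lower). The median difference there was 0.46, whereas the drug part had a median of -0.01. The reverse pairing, on other libraries, also gave 0.46. Chromosome 6 followed at 0.20, and chromosome 21 had the lowest median at -0.23. Members named above that lie on chromosome 5 are NPR3, HDAC3, FBN2, ITGA1, GABRB2 and STC2. The differences were 5.94 for NPR3, 2.78 for FBN2, 0.91 for HDAC3 and -0.12 for STC2. The line part was 0.07 for GABRB2, beside a drug part of 1.47, and -0.57 for ITGA1. The median line part of the chromosome was 0.47. The part of the chromosome in the differences of any of these genes was not tested.

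**Figure D5:**
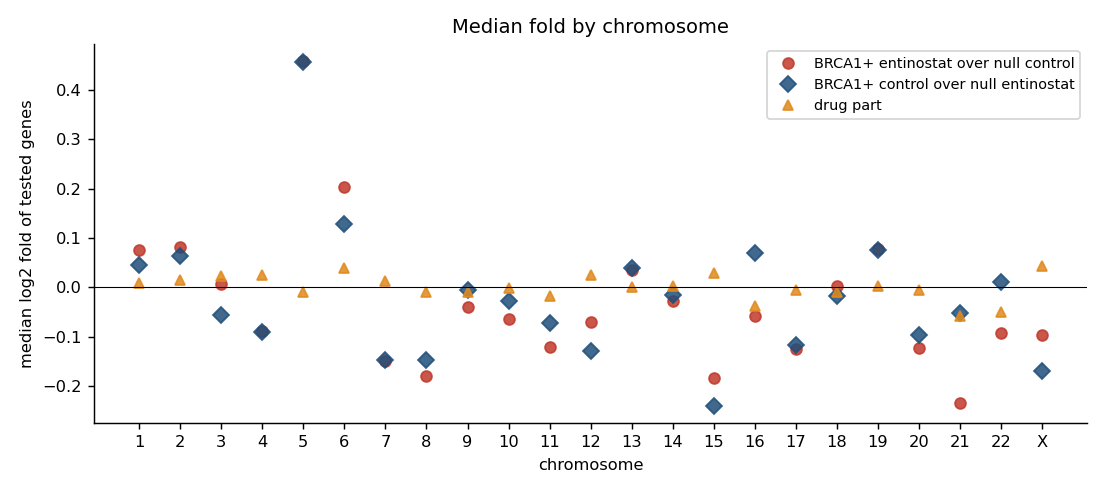
Median log2 fold of the tested genes of each chromosome, for treated BRCA1+ over untreated BRCA1-null cells, for untreated BRCA1+ over treated BRCA1-null cells, and for the drug part. Chromosome 5 stands at 0.46 in both pairings, which share no library, and the drug part stays near 0 on every chromosome.

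Whether the 2 lines responded differently to the drug was tested by the interaction of line and treatment. By edgeR 0 genes were called, with 827 at an unadjusted p under 0.05 and a smallest adjusted p of 0.66. With the replicate number as a block edgeR called 1 gene, with 1505 at an unadjusted p under 0.05, and the DESeq2 Wald test called 11. These counts do not show that the lines responded alike.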

How the data were processed

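The authors deposited raw counts per gene symbol in 1 table, made by alignment to hg19 with TopHat 2 and counting with NGSUtils. How strand and multiply mapped reads were handled is not given in the sources used here, so reads of overlapping genes cannot be told apart. Sample titles gave each library its group and replicate number. An entry without a name (1 entry, 0 counts) was left out.

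Testing used edgeR 4.0.16 (R 4.3.3), the tool named in the study's methods. Genes passing filterByExpr were scaled by TMM and fitted in 1 quasi-likelihood model of the 4 group means (4 residual degrees of freedom, legacy FALSE). Contrasts were both pairings, the line part, the drug part, the interaction, the untreated line difference and the drug change in each line. Tests were two-sided, with Benjamini-Hochberg adjustment over all 17714 genes and a threshold of 0.05. Adjusted p-values come from this test unless another tool is named, and standard errors from its fitted weights and moderated dispersion. An exact permutation test of 2 against 2 libraries cannot go below p = 0.333, so none was run.

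CPM used TMM-scaled library sizes. Where all libraries of a group had at most 3 counts, a fold is a lower bound against that floor per library. The scripts were tested on simulated counts with known changes. Promoters came from RefSeq on GRCh38.p14, another build than that of the counts, and were matched by symbol for the 5 genes printed.

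The genes compared, the 23 gene lists, the 5 marker lists and the 5 printed promoters were chosen with earlier results of these data known. Named genes were a panel (BRCA1, HDAC1, HDAC2, HDAC3, CDKN1A, H1F0, IFI16, IL1A), the 4 largest called differences in each direction among genes whose mean log2 CPM reached 3 and whose libraries did not overlap between the groups, the 3 largest drug parts per class and direction (line part of at least 0.58 except in opened genes), and up to 4 members per list. OASL, GBP2, SAMD9L, CXCL11 and others marked in the text were named after their values were seen. For 1 member of the lists, no value is reported here. As alternatives, the scaling was changed to DESeq2 1.42.0 size factors or to upper quartiles, the filter was dropped or raised (1 CPM in 2 libraries), the DESeq2 Wald test was used, absolute log2 fold changes below 1 were not called, a replicate block was added, fits were confined to the 2 groups in a pairing, and each library was omitted in turn.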

Additional observations from a re-analysis of the deposited data

How the results depend on the processing

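Counts of called genes stayed within 1.5 times of those reported under both other scalings, without or with a stricter filter, and under the DESeq2 Wald test (7443 calls between the 2 groups). When differences below 1 on the log2 scale were not called, 2487 genes were called between the 2 groups, 2451 in the reverse pairing, 2095 in the line part and 683 in the drug part, and 99 were widened, 163 had opposed parts, 6 were closed, 4 overshot and 274 opened, a stricter rule that leaves fewer genes by construction. Upper-quartile factors moved the share of raised genes in the drug part from 58.4% to 66.0%.

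Replicate numbers are shared by all groups, but the deviations of same-numbered libraries correlated at 0.0523 to 0.287, over 0.1 in 4 of 6 pairs of groups, and nothing states a shared batch. Since 2 pairs lay below 0.1, the numbers were not taken to pair libraries, although the third principal component (5.47% of the variance) held every replicate 1 on one side of 0 and every replicate 2 on the other. With the replicate number as a block, 9787 genes were called between the 2 groups, 9484 in the reverse pairing, 10666 in the line part and 6349 in the drug part, and 175 genes overshot. The block brought the difference of 7 closed genes past the threshold, namely H1F0 (adjusted p = 0.00576), TLE2 (0.0416), INHBB (0.0372), RRM2 (0.0301), GINS4 (0.0311), IFNAR2 (0.0385) and SLC7A5 (0.0174). Upper-quartile factors did so for RRM2 (0.0454) and GINS4 (0.0497), and the DESeq2 Wald test for DHCR7 (0.0437).

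When each library was left out in turn, calls between the 2 groups ranged from 5827 to 8379, those of the reverse pairing from 6209 to 8050, those of the line part from 8094 to 9053 and those of the drug part from 3058 to 4008. Widened genes ranged from 960 to 1344, genes with opposed parts from 816 to 1218, closed genes from 377 to 530, overshot genes from 37 to 84 and opened genes from 741 to 1185. A fit without a library leaves its group with 1 library, which is then assumed to vary like the others.

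Across the differences of single named genes, 1771 values under an alternative kept their direction and side of the threshold, 57 fell below it, 14 passed it and 11 turned sign. Many of the 57 came from the rule that differences below 1 were not called, which drops such genes by construction. The sign changes concerned closed genes with a difference near 0. Without 1 library at a time these ranged from -0.30 to 0.18 for ZNF467, from -0.13 to 0.0134 for CCNA2, from -0.10 to 0.0827 for PLK1, from -0.0119 to 0.0874 for H2AFX, from -0.24 to 0.30 for SAMD9, from -0.0476 to 0.28 for TNFSF10 and from -0.11 to 0.0851 for FASN, and PLK1 stood at 0.0003021 in the fit on only the groups compared. Apart from genes already named with a lost call, ADAMTS15, ESRP2, HBEGF, HIST2H2BE, SOCS1, MUC1, EREG and BMF lost theirs without at least 1 library. The cause was not tested. Depth limits the genes of few counts, such as CXCL10, ESR1 and HEYL.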
